A study of Rattus norvegicus with 6 samples.

Results

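The genes described here encode the subunits of the proteasome, with its regulatory cap, its activators and a few dedicated assembly factors, measured in the renal cortex of rats. They were taken as every gene on the array whose current rat symbol starts with Psma, Psmb, Psmc, Psmd or Psme followed by a digit, without the interferon-inducible catalytic subunits Psmb8 and Psmb9. That gave 41 genes on 72 probes, out of 30709 features tested in all. 2 of the 41, Psmc3ip and Psme3ip1, share the prefix but encode interacting proteins, and the remaining 39 are the members summarised below: 16 of the core (8 Psma and 8 Psmb), 19 of the cap (6 Psmc and 13 Psmd) and 4 activators (Psme). The set is not purely constitutive, since it holds Psmb10, an interferon-inducible catalytic subunit, Psma8, a testis form, and Psme1 and Psme2, which interferon also induces. Psmd11 had no matched probe and was not analysed here.

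The animals were male Sprague-Dawley rats (Crl:CD(SD)), bought at 5 weeks of age and dosed for 4 weeks. The vehicle group of 3 received Corn Oil, and the treated group of 3 received o-anthranilic acid, ortho-aminobenzoic acid, at 1000 mg/kg/day. Each animal's renal cortex gave total RNA for 1 Agilent array read in a single colour (Cy3). The RNA comes from whole cortex, so fewer cells of a type and less RNA per cell cannot be told apart. The share of probes well above local background, as the scanner software flags it, ran from 63.6% to 69.3% over the 6 arrays, and the number of arrays limits the precision. All 6 proximal tubule markers (Slc34a1, Lrp2, Cubn, Slc5a2, Slc22a6 and Aqp1) were well above background on every array, as the labelled tissue requires. Pvalb and the macrophage marker Cd163 were not well above background on any array. The other markers listed with them were on all 6, Slc12a3 for the distal convoluted tubule and Cd68 and Csf1r for macrophages.

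The proteasome is the protease that breaks down proteins tagged with ubiquitin. Its core is a barrel of alpha and beta subunits with the cutting sites facing inwards, and its cap carries the receptors, the ubiquitin-removing enzyme and the ATPases that unfold a substrate and thread it into the core. Transcription of the subunits is known to rise together when proteasome activity is blocked, through the factor Nrf1 (Nfe2l1) acting on antioxidant response elements, and Nrf2 (Nfe2l2) is known to raise some of them under oxidative stress.

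Setting treated against vehicle animals asks which transcripts differ after dosing with o-anthranilic acid. No member passed the test in either direction: limma with Benjamini-Hochberg adjustment over all features called 0 of 39 higher and 0 of 39 lower, with adjusted p from 0.578 to 0.995. limma called 0% of the 30709 features, so the absence of calls is shared with the whole array. At an unadjusted p under 0.05 limma had 0 members higher and 1 lower (Psmd9), where 8.3% of all features passed, 3.46% higher and 4.84% lower. Levels are given here as log2 of the probe's processed signal minus the array's 75th percentile, and differences as log2 fold changes, treated minus vehicle, with the standard error (SE) of the limma fit and 3 animals per group throughout. The levels of different probes are not comparable as abundance.

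The differences were small in size as well. The median log2 fold change over the 39 members was 0.0058, with 20 above 0 and 19 (48.7%) below, where 51.9% of all features were below 0. The values ran from -0.23 for Psmd9 to 0.14 for Psmd12. Over all features the median was -0.0065. The median size regardless of sign was 0.039 for the members, 0.11 for all features and 0.069 for the 6142 features with the brightest probes. For 27 of the 39 members, or 69.2%, the 95% interval lay inside a 1.2-fold change either way (0.26 on the log2 scale). That was so for 17.8% of all features and 35.2% of those bright features. A larger change than this is therefore outside the interval of most members, and inside it for the other 12. The core had 13 of 16 members within the bound, the cap 13 of 19 and the activators 1 of 4.

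**Figure D1:**
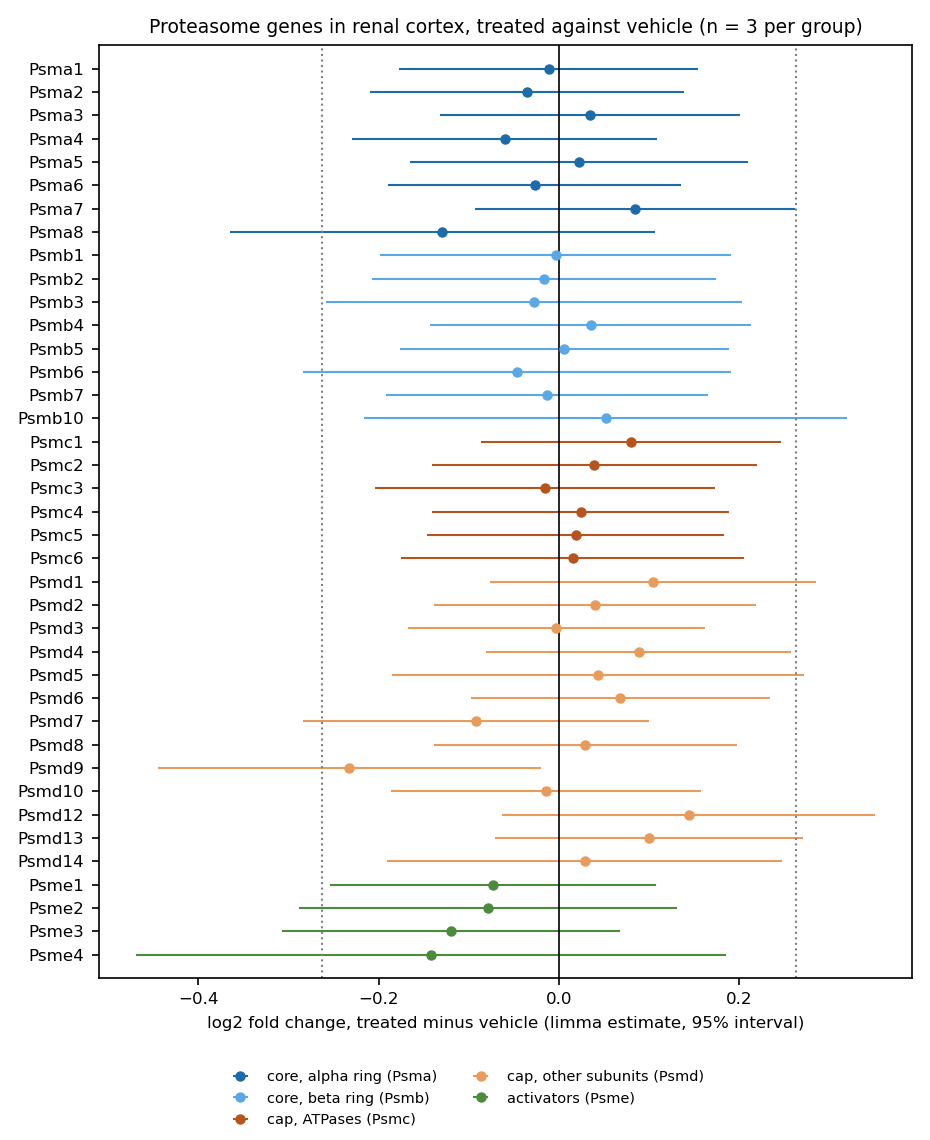
Log2 fold change, treated minus vehicle, of each of the 39 members (points) with its 95% interval from limma (lines) on the horizontal axis, with 3 animals per group; dotted lines mark a 1.2-fold change either way. Intervals of the 16 core members all include 0, Psmd9 at -0.23 is the lowest point, and the 4 activators lie below 0 with intervals that reach above it.

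The promoters of 4 members are printed because their windows carry the letters TGACNNNGC, the core of the antioxidant response element through which Nrf1 and Nrf2 act. Psmb5 and Psmb6 encode catalytic subunits, Psmd9 had the lowest log2 fold change of the 39, and Psmd1 is a large cap subunit with treated values above all vehicle values. Each is the 250 bases before the RefSeq gene start in build GRCr8, read 5′ to 3′ on the gene's strand, with the match in capitals. The first of the 2 matches in Psmd9 lies on the opposite strand and is shown as its reverse complement. Psmd1 also has 2 matches in the window searched, and the one past the gene start lies outside the printed bases.
Psmb5, chr15:32047380-32047629, minus strand: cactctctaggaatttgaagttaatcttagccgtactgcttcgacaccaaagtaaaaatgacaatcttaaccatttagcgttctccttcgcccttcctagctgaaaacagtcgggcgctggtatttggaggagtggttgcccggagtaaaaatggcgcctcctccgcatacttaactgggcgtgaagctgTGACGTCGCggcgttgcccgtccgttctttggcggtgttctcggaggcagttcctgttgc
Psmb6, chr10:55737638-55737887, plus strand: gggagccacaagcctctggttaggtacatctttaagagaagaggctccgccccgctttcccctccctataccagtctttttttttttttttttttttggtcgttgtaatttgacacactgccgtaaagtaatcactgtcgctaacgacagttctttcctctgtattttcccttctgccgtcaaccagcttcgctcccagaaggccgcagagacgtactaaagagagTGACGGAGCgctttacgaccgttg
Psmd9, chr12:39018265-39018514, minus strand: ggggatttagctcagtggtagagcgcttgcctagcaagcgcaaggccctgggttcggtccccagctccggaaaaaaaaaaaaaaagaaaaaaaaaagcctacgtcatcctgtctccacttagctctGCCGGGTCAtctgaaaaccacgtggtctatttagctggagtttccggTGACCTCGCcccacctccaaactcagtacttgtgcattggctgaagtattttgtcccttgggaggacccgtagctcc
Psmd1, chr9:94157721-94157970, plus strand: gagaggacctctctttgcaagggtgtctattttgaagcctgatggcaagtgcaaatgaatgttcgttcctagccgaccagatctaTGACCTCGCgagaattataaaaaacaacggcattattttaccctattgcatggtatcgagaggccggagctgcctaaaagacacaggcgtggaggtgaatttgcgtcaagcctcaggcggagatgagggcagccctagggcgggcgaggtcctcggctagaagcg

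RefSeq's promoter table held 35 of the 39 members, and the search covered 250 bases before to 50 after the start on both strands. It lacked Psma7, Psmd6, Psmd12 and Psmd14, whose log2 fold changes were all above 0 (0.084, 0.068, 0.14 and 0.029). The medians by match given here leave these members out. The antioxidant response core was found in 8 of 35 windows (22.9%), those of Psma3, Psmb2, Psmb5, Psmb6, Psmd1, Psmd3, Psmd9 and Psme4, against 4038 of 33469 promoters (12.1%) in the whole table. The 8 members with a match had log2 fold changes from -0.23 to 0.10 with a median of -0.0095, 3 above 0 and 5 below. The 27 without a match had a median of -0.0036, with 13 above 0 and 14 below. Both medians lay near 0. CCAAT, read by the factor NF-Y, was found in 17 of 35 windows (48.6%) against 37.5% of all promoters. The median was -0.014 for the 17 with CCAAT and 0.017 for the 18 without. Neither match is evidence that a factor was bound. The same window of Nqo1, a redox target of Nrf2, held no antioxidant response core. A missing match in this window therefore does not show that Nrf1 or Nrf2 leaves a gene alone.

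Among the core members, the alpha subunits form the outer rings that gate entry to the barrel. Their log2 fold changes had a median of -0.019, with 3 of 8 above 0, from -0.13 for Psma8 to 0.084 for Psma7. Psma7 stood at 5.05, 5.07 and 5.17 in the vehicle animals and at 5.18, 5.22 and 5.14 in the treated animals (log2 fold change 0.084 ± 0.073, SE). The groups overlapped, since the third treated animal was below the highest vehicle animal. Psma8 (NM_001108884), which replaces Psma7 in testis, was the dimmest member, with levels of -5.23, -5.33 and -5.09 in vehicle and -5.29, -5.29 and -5.46 in treated animals. Its probe was well above background on 4 of 6 arrays and its other 3 probes on none, so its difference of -0.13 ± 0.097 rests on a signal near background. Psma1, Psma2, Psma3, Psma4, Psma5 and Psma6 lay between -0.060 and 0.034.

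The 3 beta subunits that carry the cutting sites of the constitutive core had log2 fold changes from -0.046 to 0.0058. Psmb5 (NM_001105727), the chymotrypsin-like subunit, stood at 4.39, 4.47 and 4.55 in vehicle animals and at 4.51, 4.46 and 4.47 in treated animals. All 3 treated values lay inside the vehicle range, and the log2 fold change was 0.0058 ± 0.075 with a 95% interval from -0.18 to 0.19. Psmb6 (NM_057099), the caspase-like subunit, stood at 2.80, 2.84 and 3.05 in vehicle and at 2.92, 2.87 and 2.76 in treated animals. Its log2 fold change was -0.046 ± 0.098, with a 95% interval from -0.28 to 0.19 that reached past a 1.2-fold change on the lower side. Vehicle replicate 3 was the highest of the 6, and the first 2 treated animals fell between it and the other vehicle animals. Psmb7 (NM_053532), the trypsin-like subunit, stood at 2.88, 2.91 and 3.02 in vehicle and at 2.94, 2.90 and 2.92 in treated animals, a log2 fold change of -0.013 ± 0.073 (95% interval -0.19 to 0.17). Its treated values lay inside the vehicle range as well. The structural beta subunits Psmb1, Psmb2, Psmb3 and Psmb4 lay between -0.028 and 0.035.

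Psmb10 (NM_001025637), the interferon-inducible counterpart of Psmb7, was among the 3 least precisely measured members. It stood at 2.74, 2.66 and 2.89 in vehicle animals and at 2.89, 2.92 and 2.64 in treated animals, with a log2 fold change of 0.052 ± 0.11. The lowest and the highest of the 6 values were both in treated animals. Psmb8 and Psmb9, its partners in the immunoproteasome and outside the rule, had log2 fold changes of -0.26 ± 0.16 and -0.15 ± 0.12. Psmb8 stood at 0.64, 0.58 and 0.86 in vehicle animals and at 0.13, 0.66 and 0.52 in treated animals, and Psmb9 at 0.96, 0.95 and 1.24 against 0.81, 1.07 and 0.81. Neither passed the test, and both pairs of groups overlapped.

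In the cap, the 6 ATPases Psmc1 to Psmc6 form the ring that unfolds substrates. Their log2 fold changes ran from -0.015 to 0.080 with a median of 0.021, 5 of 6 above 0, and all 6 intervals lay within 1.2-fold. Psmc1 (NM_057123) had the highest, 0.080 ± 0.068 (limma, Benjamini-Hochberg adjusted p = 0.780). It stood at 4.40, 4.46 and 4.47 in vehicle animals and at 4.55, 4.54 and 4.48 in treated animals. The groups did not overlap, but the nearest values of the groups lay close together. Each of the ATPases spanned at most 0.16 over the 6 arrays.

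The 13 Psmd members comprise scaffold subunits, ubiquitin receptors, the deubiquitinase and assembly chaperones. Their median was 0.040, with 9 above 0 and 4 below. Psmd12 (NM_001005875), a scaffold subunit of the lid, had the highest log2 fold change of any member, 0.14 ± 0.085 (95% interval -0.063 to 0.35, unadjusted p = 0.140, adjusted p = 0.690 by limma with Benjamini-Hochberg). Its levels were 4.12, 4.27 and 4.15 in vehicle and 4.42, 4.24 and 4.31 in treated animals, and treated replicate 2 was below vehicle replicate 2. Psmd13 (NM_001108925), another lid subunit, stood at 1.91, 1.92 and 1.93 in vehicle and 2.02, 2.08 and 1.95 in treated animals (0.10 ± 0.070, 95% interval -0.070 to 0.27). The 3 vehicle animals were nearly identical and all treated animals were above them.

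Psmd1 (NM_031978), the scaffold at the base of the cap, whose promoter is printed above, stood at 5.32, 5.32 and 5.23 in vehicle and at 5.45, 5.40 and 5.33 in treated animals (0.10 ± 0.074, adjusted p = 0.733 by limma with Benjamini-Hochberg). Psmd4 (NM_031331), a receptor for ubiquitin chains, stood at 3.53, 3.54 and 3.54 in vehicle and at 3.69, 3.58 and 3.60 in treated animals (0.088 ± 0.070). In both genes every treated animal was above every vehicle animal. Psmd2, the scaffold that docks shuttle proteins carrying ubiquitin, stood at 5.56, 5.61 and 5.55 against 5.67, 5.54 and 5.64, and its groups overlapped (0.040 ± 0.073). Its dimmer probes gave 0.068 with all treated above all vehicle values, and 0.12 with overlapping groups. Psmd14, the deubiquitinase, stood at 1.01, 1.00 and 0.77 in vehicle and at 0.94, 0.99 and 0.95 in treated animals, with the low value in vehicle replicate 3 (0.029 ± 0.090). Psmd7, its partner subunit, stood at 2.01, 1.95 and 2.02 against 2.00, 1.83 and 1.86. That is a log2 fold change of -0.092 ± 0.079, with the first treated animal inside the vehicle range. Another of its 3 probes gave 0.075 with all treated above all vehicle values, and the mean of its probes was -0.013, so the probes do not settle a direction.

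Counted by whether the groups overlap, 5 of the 39 members had all treated above all vehicle values (Psmc1, Psmd1, Psmd4, Psmd6 and Psmd13) and 1 had all treated below (Psmd9). Those are 12.8% and 2.56% of the members, 15.4% together. Of all features, 14.7% separated the groups, 6.39% higher and 8.31% lower, and of the 6142 brightest features 15.5% did. The joint share of the members was thus near that of the array. All 6 genes are cap members or cap chaperones, and 0 of the 16 core members separated the groups, although a dimmer probe of Psma3 did (0.12, all treated above all vehicle). In the cap, dimmer probes of Psmd2 and Psmd7 also had all treated values above, and a dimmer probe of Psmc4 had all below. Whether cap and core differ in this count was not tested. Of the 5 higher genes, 4 had another probe above background. Those 4 probes had log2 fold changes above 0 and overlapping groups. The separation in each of these genes was therefore seen on 1 probe.

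Psmd5, Psmd9 and Psmd10 are chaperones that assemble the base of the cap and leave the finished particle. Psmd9 (NM_130430) stood at 4.06, 4.03 and 4.10 in vehicle animals and at 3.69, 3.92 and 3.89 in treated animals. All treated values were below all vehicle values, and treated replicate 1 was the lowest. Its log2 fold change was -0.23 ± 0.087 (95% interval -0.44 to -0.020, unadjusted p = 0.037, adjusted p = 0.578 by limma with Benjamini-Hochberg), so its mean was 1.17-fold lower in treated animals but did not pass the test. Its unadjusted p was under 0.05 in the fit as reported and above it in 7 alternatives, among them those without treated replicate 1, without treated replicate 3 and without vehicle replicates 1 or 2. The gene's other probes gave -0.16 and -0.081, both with overlapping groups. Psmd5 stood at 0.50, 0.64 and 0.52 in vehicle and at 0.69, 0.64 and 0.45 in treated animals (0.044 ± 0.094). Psmd10, also known as gankyrin, stood at 1.58, 1.65 and 1.69 against 1.67, 1.59 and 1.61 (-0.014 ± 0.071). The other chaperones did not share the low values of Psmd9.

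**Figure D2:**
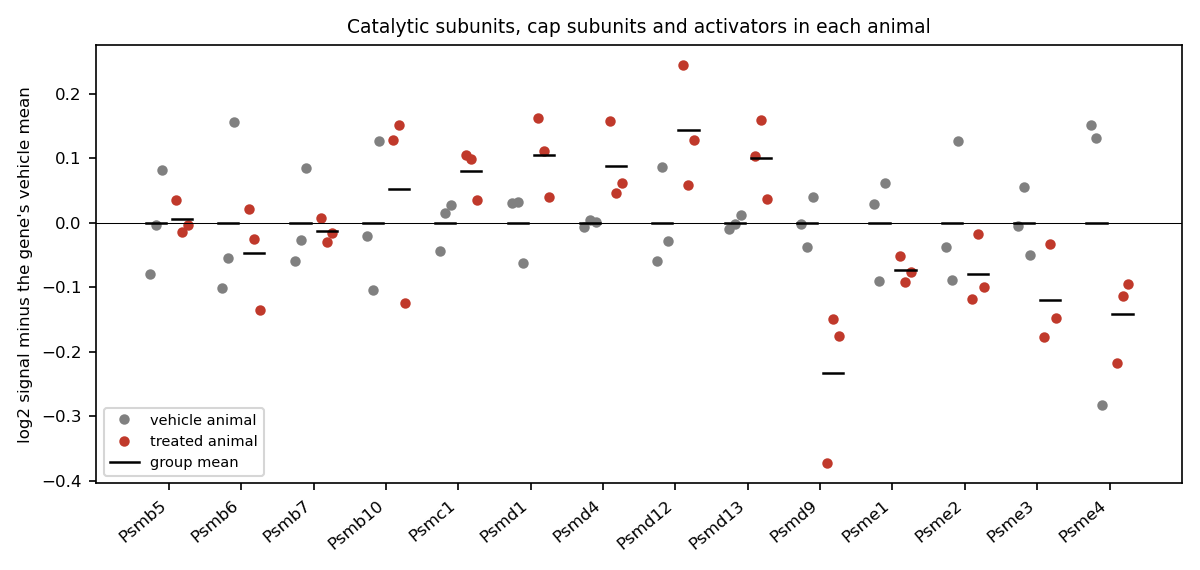
Log2 signal of selected members in each animal after subtraction of the gene's vehicle mean (vertical axis), with vehicle animals in grey, treated animals in red and group means as bars, 3 animals per group. In Psmd9 the 3 treated points lie below the vehicle points, and in Psmb5 and Psmb7 they lie inside the vehicle range.

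The 4 activators bind the ends of the core in place of the cap and open it without ubiquitin. All 4 had log2 fold changes below 0, with a median of -0.099, and none passed the test. Psme1 (NM_017264) and Psme2 (NM_017257), the subunits of the interferon-inducible PA28 ring, stood at 5.14, 5.03 and 5.18 against 5.06, 5.02 and 5.04, and at 4.92, 4.86 and 5.08 against 4.83, 4.94 and 4.85. The vehicle and treated values overlapped in each. Their log2 fold changes were -0.073 ± 0.074 and -0.079 ± 0.086, and the second probe of each gave -0.13 and -0.12 with all treated below all vehicle values.

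Psme3 (NM_001011894), the nuclear activator PA28 gamma, stood at 3.08, 3.14 and 3.03 in vehicle and at 2.91, 3.05 and 2.94 in treated animals (-0.12 ± 0.077). Its other probe gave the opposite sign, 0.12, so the mean of its probes was 0.0015 and the probes do not settle a direction. Psme4 (NM_001025140), the activator PA200, had the largest SE of the members. It stood at 2.12, 2.10 and 1.68 in vehicle and at 1.75, 1.85 and 1.87 in treated animals, and all its 3 probes were below 0 (-0.14 ± 0.13 for the brightest). Vehicle replicate 3 was the lowest of all 6. The difference was -0.28 without vehicle replicate 3 and -0.066 without vehicle replicate 1. Over all activator probes, 8 of 9 were below 0, against 11 of 22 core probes, 11 of 36 cap probes and 51.9% of all features. The 9 probes read 4 genes in the same 6 animals, so they are not independent counts.

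**Figure D3:**
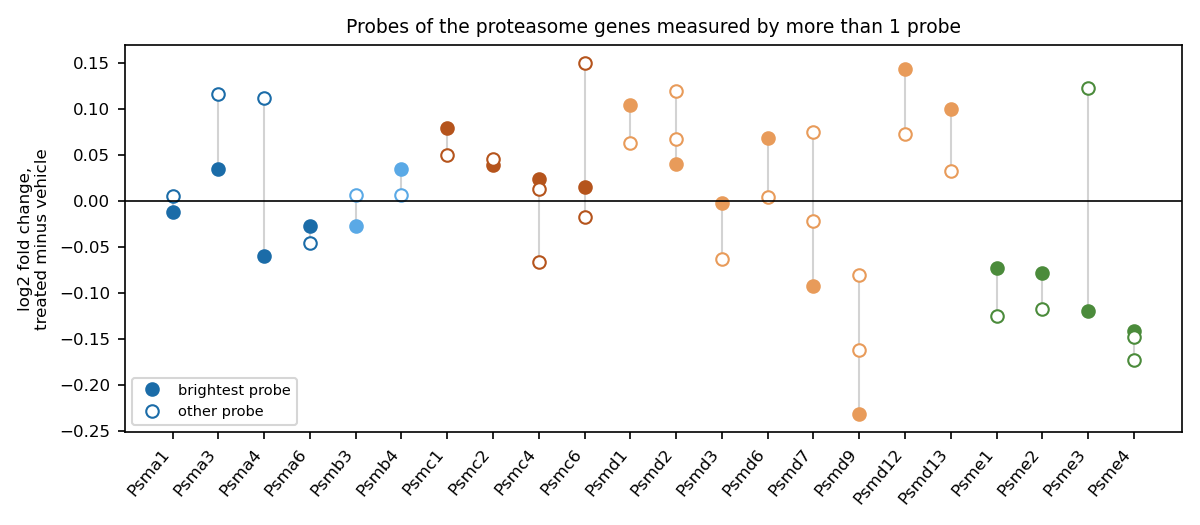
Log2 fold change, treated minus vehicle (vertical axis), of each kept probe of the 22 members with more than 1 kept probe, the brightest probe filled and the others open. The probes of Psme3 lie on opposite sides of 0, 0.24 apart, and the 3 probes of Psmd9 lie below 0.

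Several marker lists had all measured genes on the same side of 0, and none of their genes passed the test. All 7 genes of the interferon response list (Irf7, Isg15, Usp18, Mx1, Tap1, Psmb8 and Psmb9) had log2 fold changes below 0, with a median of -0.43. By limma 4 had an unadjusted p under 0.05, where 4.84% of all features were lower at that p, and their Benjamini-Hochberg adjusted p ran from 0.501 to 0.769 over the list. Averaged as deviations from each gene's vehicle mean, the list stood at 0.35, -0.47 and 0.12 in the vehicle animals and at -0.77, -0.59 and -0.44 in those given the compound. The activators stood at 0.035, 0.0016 and -0.036 in vehicle animals and at -0.14, -0.064 and -0.10 on the treated arrays. The interferon list overlapped between the groups, since vehicle replicate 2 was below treated replicate 3. The activators' groups did not overlap on this scale, but they did with quantile normalization (vehicle replicate 3 at -0.080, treated replicate 2 at -0.073) and with normexp background correction (-0.023 and 0.0085 for the same animals). All 3 erythrocyte markers were above 0, with list means of -0.14, 0.12 and 0.021 in vehicle and 0.25, 0.31 and 0.61 in treated animals. All 3 fibroblast markers were above 0 as well, at 0.089, 0.12 and -0.21 against 0.28, 0.13 and 0.48, and all 3 collecting duct markers below, at -0.13, 0.088 and 0.044 against -0.20, -0.15 and -0.074. By limma the erythrocyte marker Alas2 and the fibroblast markers Col1a1 and Pdgfrb had an unadjusted p under 0.05, where 3.46% of all features were higher at that p. Both measured macrophage markers were below 0. Other lists were mixed, with 4 above 0 and 2 below for proximal tubule, 1 and 2 for podocyte, 2 and 1 for endothelium, and 1 and 2 for T and B cells. The part of any of these lists in the activators' values was not tested.

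Core and cap were then compared within each array, as the mean over members of the deviation from the member's own vehicle mean. The core stood at -0.045, -0.034 and 0.080 in vehicle animals and at 0.025, 0.012 and -0.063 in treated animals. The cap stood at -0.018, 0.011 and 0.0070 in vehicle and at 0.056, 0.020 and -0.0024 in treated animals. The core thus moved over a wider range than the cap, and 2 of its 3 treated values lay inside the vehicle range, with treated replicate 3 below it. By group, the core was -0.0085 ± 0.047 in treated animals around a vehicle spread of 0.069, and the cap 0.025 ± 0.030 around a vehicle spread of 0.016 (SD, n = 3). The difference of core minus cap was -0.027, -0.046 and 0.073 for vehicle against -0.031, -0.0075 and -0.060 for treated animals, a group difference of -0.033 against a pooled SD of 0.049. That is within the spread between animals, and without vehicle replicate 3 it was 0.0031. With only probes well above background on all 6 arrays, which drops Psma8, the core difference was -0.0005 and core minus cap was -0.025. Without the chaperones Psmd5, Psmd9 and Psmd10, the cap difference was 0.042 in place of 0.025.

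**Figure D4:**
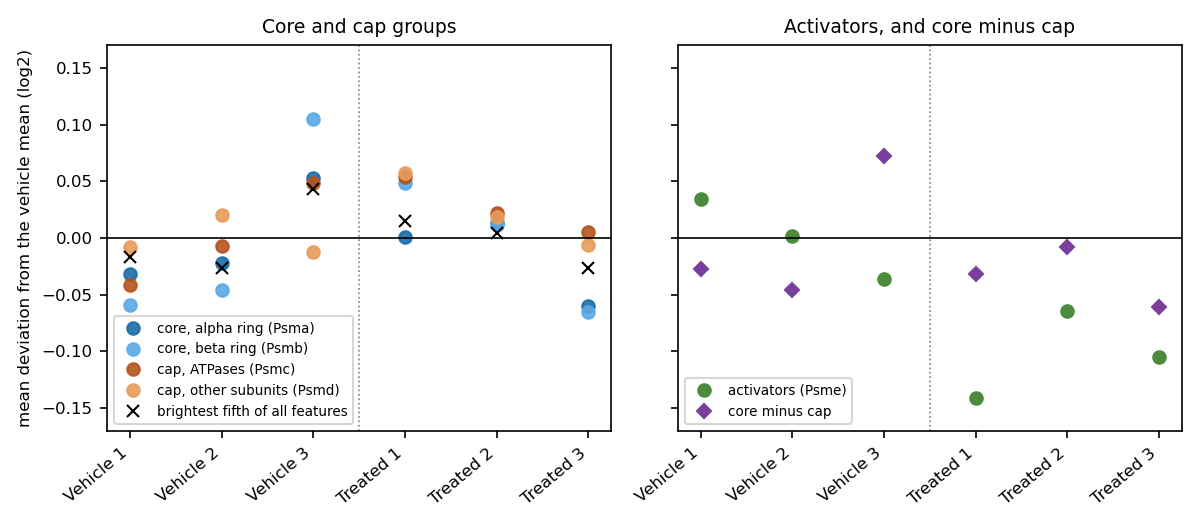
Mean deviation from the vehicle mean (vertical axis, log2) on each of the 6 arrays, with Psma, Psmb, Psmc and Psmd members and the 6142 brightest features (crosses) on the left, and the activators and core minus cap on the right. The Psmb members reach 0.11 on vehicle replicate 3 and -0.066 on treated replicate 3, and the activators lie below 0 on all 3 treated arrays.

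The animals differed in the beta subunits more than the groups did. On vehicle replicate 3 all 8 Psmb members and all 8 Psma members were above their own vehicle mean, and on vehicle replicates 1 and 2 it was 0 and 0 of the Psmb and 1 and 1 of the Psma. On treated replicate 1 all 8 Psmb were above the vehicle mean, and on treated replicate 3 only 1. The 6142 brightest features went the same way with smaller values, 0.043 on vehicle replicate 3 and -0.026 on treated replicate 3. With quantile normalization the core deviation of vehicle replicate 3 was 0.038 in place of 0.080. How far the scaling of bright probes contributes was not tested. In the cap, 12 of 13 Psmd were above their vehicle mean on treated replicate 1, 8 on treated replicate 2 and 7 on treated replicate 3.

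The members were also measured more tightly than most of the array. The pooled SD between animals of a group was below the median of all features (0.14) in 38 of 39 members, and below that of the 6142 brightest features (0.097) in 32. It ran from 0.030 for Psma6 to 0.18 for Psme4, with a median of 0.058. After Psme4 the largest SE belonged to Psmb10 and Psmb6.

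**Figure D5:**
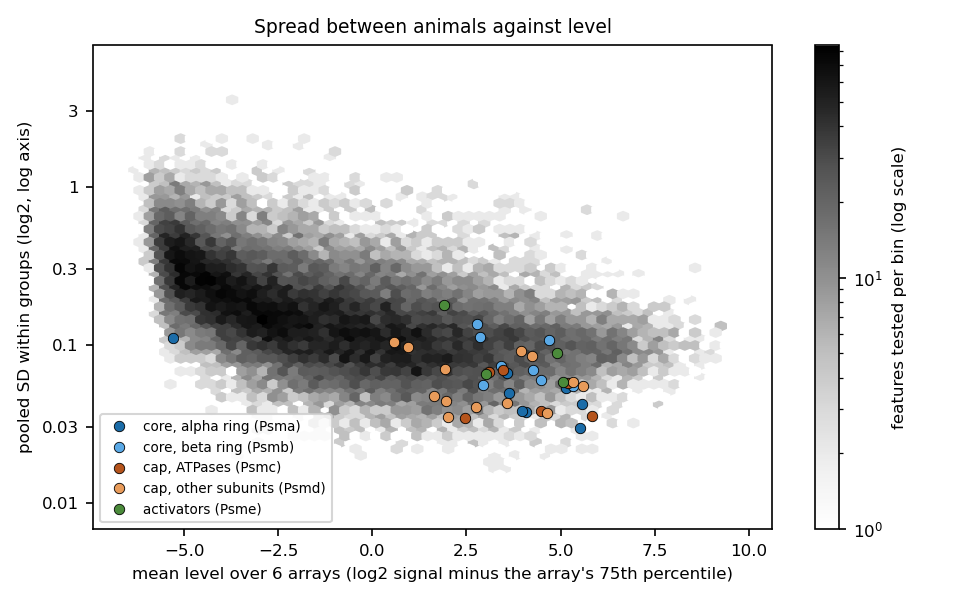
Pooled SD between animals of a group (vertical axis, log2 values on a log axis) against mean level over 6 arrays (horizontal axis), with the 39 members as coloured points over the density of all 30709 features in grey. The members lie towards the lower edge of the grey cloud, with Psme4 the highest at 0.18 and Psma8 alone at low levels.

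Other genes of the pathway were read from fixed lists in the same fit, and limma with Benjamini-Hochberg adjustment called none of them. The lists held 5, 3, 7, 11 and 12 measured genes. They cover assembly and inhibition, other particle subunits and enzymes, transcription, shuttle and extraction, and ubiquitin and its activation. Only 1 gene, Mafk, had an unadjusted p under 0.05 by limma, where 8.3% of all features did. Among assembly factors and inhibitors, 3 of 5 measured genes were above 0 and 2 below, with a median of 0.036. Pomp, the chaperone that matures the core, stood at 5.88, 5.90 and 6.05 against 5.84, 6.06 and 5.85 (-0.028 ± 0.098). Adrm1, a ubiquitin receptor, and Usp14, a deubiquitinase of the particle, stood at 0.066 ± 0.094 and -0.025 ± 0.070. The list around proteasome gene transcription held Nfe2l1, Nfe2l2, Ngly1, Maff, Mafg, Mafk and Keap1, of which 3 of 7 were above 0 and 4 below. Its median of -0.067 was the value of Keap1. Not all of its genes drive proteasome genes, since Keap1 restrains Nrf2 and Ngly1 is a processing enzyme. Nfe2l1 stood at -0.088 ± 0.096 and Nfe2l2 at -0.13 ± 0.11. Mafk, a small Maf partner of both, had all treated (-2.06, -2.09 and -2.05) below all vehicle values (-1.81, -1.87 and -1.82), a log2 fold change of -0.24 ± 0.066 with an adjusted p of 0.490 by limma with Benjamini-Hochberg.

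Shuttle and extraction factors, which deliver ubiquitinated proteins, were split 5 above 0 and 6 below, with a median of -0.023. Faf2, a cofactor of the segregase Vcp at the endoplasmic reticulum, stood at 1.65, 1.75 and 1.59 in vehicle and at 1.87, 1.81 and 1.86 in treated animals (0.18 ± 0.076). Its groups did not overlap, and Ubqln1, a shuttle, stood at -0.12 ± 0.085 with overlapping groups. The genes of ubiquitin and its activation were 6 above 0 and 6 below. Ubb, which encodes polyubiquitin, stood at -0.11 ± 0.084 and the activating enzyme Uba1 at 0.084 ± 0.070. Gstp1 and Nqo1, redox targets of Nrf2, were added after their values were seen and do not stand for such targets in general. Their log2 fold changes were 1.39 ± 0.24 and 1.28 ± 0.28 without passing the test (adjusted p = 0.386 and 0.459 by limma with Benjamini-Hochberg). The proteasome member farthest from 0 stood at -0.23, and its relation to these genes was not tested. The prefix-sharing genes Psmc3ip and Psme3ip1 stood at -0.11 ± 0.080 and 0.022 ± 0.10.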

How the data were processed

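Renal cortex RNA of 6 rats was measured on 6 arrays. The submitters' processing notes name Agilent Feature Extraction 10.7. The deposited scanner files hold intensity on a linear scale, background-subtracted by that software and not normalised between arrays, per the file headers. The authors' deposited values are a ratio. Set against the scanner files, it is linear, uncentred, and equal to processed signal over the array's 75th percentile, with column medians of 0.104, 0.106 and 0.103 for vehicle and 0.106, 0.104 and 0.103 for treated samples. Within each group its replicate numbers are rotated against the scanner files; which order is right is unknown, and replicates are named by scanner file. The labels call the samples biological replicates.

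Of 61657 non-control probes, 84 for external controls and 47 with outlier flags were left out. RefSeq accessions named 27435 of 61526 probes, giving 15277 symbols, and 34091 were not named. The design's build (rn4) differs from RefSeq's GRCr8, so gene coordinates are given for RefSeq promoters only. Kept probes were well above background on 3 or more of the 6 arrays, and the brightest represented its gene (67 of 70 probes of the 39 members kept; 22 genes had more than 1). log2 values minus the array's 75th percentile entered lmFit and eBayes of limma 3.58.1 (R 4.3.3), adjusted by Benjamini-Hochberg over 30709 features at a threshold of 0.05, with data.table (1.17.8), jsonlite 2.0.0 and statmod 1.5.0. The fit was tested on simulated data. Alternatives were normexp with an offset of 50 on median signals, 3 other scalings, the authors' values, 2 filters, the mean of probes, other variance models, replicate and slide blocks, and each array left out.

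Members and lists were chosen with earlier results of these data known. Genes named with values in every animal were the catalytic, receptor, deubiquitinase, chaperone and activator members, those among the 5 smallest p-values on either side and the 3 largest SE. Psma7, Psmb8, Psmb9, the probes of single genes and Gstp1 and Nqo1 were added after their values were seen.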

Additional observations from a re-analysis of the deposited data

How the results depend on the processing

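limma with Benjamini-Hochberg adjustment called 0 members higher and 0 lower in all 19 alternative fits. Over all features it called 0 in the fit as reported, 5 with normexp, 5 with robust eBayes and a variance trend, 3 with the slide as a block, 3 on slide 1 only, 2 with each gene's probes averaged, 1 with a filter of all 6 arrays and 0 to 3 with each array left out. The slide block equals leaving out treated replicate 2, the sole array of its slide. The replicate numbers did not pair the animals (same-number correlations 0.023, -0.044 and -0.021), and the replicate number as a block gave 0 calls. Psme3 turned from -0.12 to 0.0015 with the mean of its probes, because its second probe has the opposite sign.

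The cap median was above 0 in 21 of 21 alternatives (0.017 to 0.048), the activator median below 0 in 19 of 19 (-0.13 to -0.082), and the core median below 0 in 17 of 21 (-0.034 to 0.031). These counts are not separate checks, since all alternatives use the same animals and several could not move a median. Dropping the filter, the other variance model with a robust fit and the replicate block left these medians unchanged. The slide fits repeat the fit without the array that is alone on its slide. Leaving out single arrays gave the ends of all these ranges. With each array left out the core minus cap difference ran from -0.056 to 0.0031. Psmd9 ran from -0.27 to -0.16, with a smallest adjusted p of 0.474.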

Other observations

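Ubiquitin ligases and autophagy receptors, which stand beside the proteasome in protein disposal, were also measured. Of 5 ligases, 2 had log2 fold changes above 0 and 3 below. Syvn1, a ligase of the endoplasmic reticulum, stood at 2.60, 2.54 and 2.39 in vehicle and at 2.61, 2.66 and 2.74 in treated animals (0.16 ± 0.087), with no overlap. Rbx1, the RING subunit of cullin ligases, stood at -0.076 ± 0.074. Of 5 autophagy receptors and their partners, 2 were above 0 and 3 below, with a median of -0.081. Gabarapl1, an autophagosome protein, stood at 7.70, 7.52 and 7.78 in vehicle and at 7.48, 7.38 and 7.47 in treated animals (-0.23 ± 0.093), all treated below all vehicle values. Sqstm1, the receptor p62, stood at -0.081 ± 0.093 and Nbr1 at 0.055 ± 0.070. limma with Benjamini-Hochberg adjustment called none of these, and none had an unadjusted p under 0.05, where 8.3% of all features did.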
